A study of Mus musculus with 8 samples.

Results

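The heat shock proteins and their DnaJ partners were followed in cardiac mesenchymal stromal cells (cMSCs), the fibroblast-like progenitors of the heart, of aged and young mice. Members were all genes with an array probe whose gene name begins with Hspa, Hspb, Hspd, Hspe, Hsph or Hsp90, or with Dnaja, Dnajb or Dnajc and a number. They amount to 74 genes with 158 probes, out of 56605 distinct probes, and 65 of them (129 probes) were measured well enough to be tested among 20219 genes. RNA came from 4 pools of aged and 4 pools of young C57Bl/6 male mice, 20 and 5 months old according to the labels, with 3 mice to a pool. The label code of aged replicate 4 can also be read as 2 mice. Of the 2 mouse lines in the publication, the one behind these pools is not stated. Ventricles were digested with enzymes, and cells with Sca-1 and PDGFRα at their surface and without CD31 and CD45 were sorted by flow cytometry. The labels name no treatment and no transgene. RNA of each pool was labelled with 1 dye and read on an Agilent mouse array, and aged replicates are numbered 1 to 4 and young replicates 2 to 5.

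Heat shock proteins are molecular chaperones that hold unfolded proteins, help them to fold and keep them from clumping. Hsp70 proteins bind short hydrophobic stretches in cycles driven by ATP. DnaJ proteins (also called Hsp40) bring them their clients and speed up ATP hydrolysis, and Hsp110 proteins release the nucleotide again. Hsp90 proteins finish the folding of kinases and nuclear receptors, the chaperonin Hsp60 encloses proteins in mitochondria, and small heat shock proteins hold unfolded clients without ATP. Heat, oxidants and other damage to proteins free the transcription factor HSF1, which binds heat shock elements in the promoters of some of these genes, whereas others are expressed at a steady level or follow stress of the endoplasmic reticulum (ER).

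A level is given as the log2 of the processed signal over the 75th percentile of that array, so that a level of 1 is a signal 2 times that percentile. A difference is the mean of aged pools minus the mean of young pools on that scale, and levels of different probes are not compared. In these bulk pools, a lower signal from fewer cells that express a gene and from less RNA per cell cannot be told apart. Calls were made in limma at an adjusted p under 0.05, with the adjustment over all 20219 genes. On the 8 arrays, 57.8% to 63.4% of spots were well above background and none was saturated. All 11 cMSC markers checked were above background, with Pdgfra at 5.60 to 5.83 in aged pools and 5.76 to 6.06 in young pools. The leukocyte gene Ptprc, which codes for CD45, was also above background, at 1.81 to 2.13 in aged pools and 1.83 to 2.04 in young pools.

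The chaperone genes with the largest differences were lower in aged cMSCs, but of the 65 members tested 1 fell and 0 rose, while 0.806% of all genes tested fell and 2.25% rose (3.06% in either direction). The gene that fell was Hsp90ab1. At an unadjusted limma p under 0.05, 12 members were lower and 0 were higher in aged cMSCs (5.83% of all genes were lower and 8.06% higher at that level). A log2 fold change under -0.4 was found for 12 of 65 members and 3.8% of all genes. A log2 fold change under 0 was found for 45 of 65 members, against 51.3% of all genes, and the median was -0.071 for the members and -0.0052 for all genes. The SD between pools of the members' median was 0.107, larger than that median. Groups did not overlap for 2 members, Hsp90ab1 and Hspa1b, both with every aged pool below every young pool, which was the case for 4.09% of all genes. No member had every aged pool above every young pool, which was the case for 6.32% of all genes (10.4% in either direction). At the thresholds of the publication, an unadjusted p under 0.01 and a log2 fold change over 0.5 in size, 2 members were lower, Hspa1b and Hspa1a, and 0 were higher, with 1.34% of all genes lower. Young replicate 5 decided how many members passed: without it 5 members fell (Hsp90aa1, Hspa1a, Hspa1b, Hspa8 and Hspb1), and without any of the other 7 pools no member passed. Over all genes, 116 of 20394 fell without young replicate 5.

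**Figure D1:**
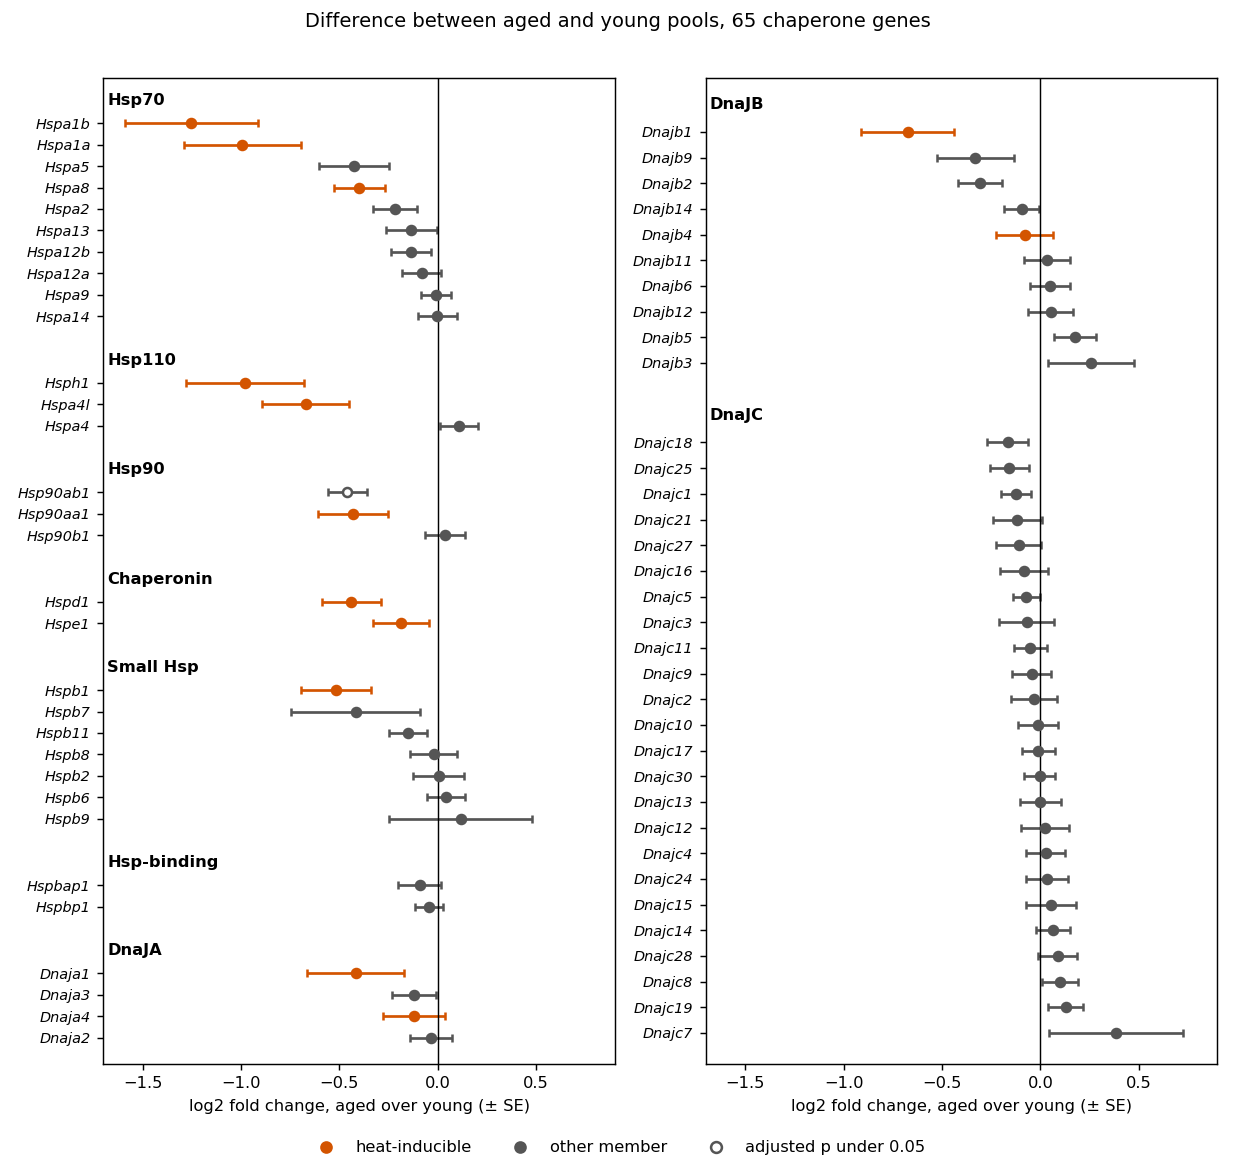
Log2 fold change of each of the 65 tested members, aged over young, with its standard error from limma, ordered by family. The largest decreases belong to Hspa1b, Hspa1a and Hsph1 at -1.25, -0.99 and -0.98, DnaJC genes lie between -0.17 and 0.13 apart from Dnajc7 at 0.38, and the open symbol marks Hsp90ab1, the gene that passed.

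Among the Hsp70 genes, all 10 tested members had a log2 fold change below 0 (8 to 10 under other scalings of the arrays), from -1.25 to -0.0025 with a median of -0.18, and none passed. The largest differences of all members were those of Hspa1b and Hspa1a, the neighbouring genes for the Hsp70 proteins that cells make after heat. Hspa1b (probe at chr17:35093374-35093405, mm9) had levels of 3.07, 3.19, 3.26 and 3.15 in aged replicates 1 to 4, against 4.38, 4.23, 5.48 and 3.59 in young replicates 2 to 5. All 4 aged pools lay close together and below all 4 young pools, which were spread widely, with young replicate 4 far above and young replicate 5 nearest to the aged pools. Hspa1b averaged 3.17 ± 0.081 in aged cMSCs and 4.42 ± 0.79 in young cMSCs (SD, n = 4 each), a signal 0.42-fold that of young cMSCs (log2 fold change -1.25, SE 0.34, limma adjusted p = 0.098, exact permutation p = 0.029). An exact permutation test of 4 against 4 pools cannot give a two-sided p below 0.029.

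Hspa1a (probe at chr17:35106766-35106825) had levels of 4.40, 4.40, 4.63 and 4.77 in aged replicates 1 to 4, against 5.54, 5.67, 6.30 and 4.67 in young replicates 2 to 5. Young replicates 2 to 4 were above every aged pool, and young replicate 5 lay below aged replicate 4. Hspa1a averaged 4.55 ± 0.19 in aged cMSCs and 5.54 ± 0.67 in young cMSCs (SD, n = 4 each) (log2 fold change -0.99, SE 0.30, limma adjusted p = 0.14, exact permutation p = 0.057). The probes of both genes share no run of more than 5 bases of their 60. Without young replicate 5, Hspa1b and Hspa1a passed, with log2 fold changes of -1.53 and -1.28 and limma adjusted p of 0.043 and 0.022.

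Hspa8 codes for Hsc70, the Hsp70 protein that every cell makes without stress, and more of it after heat, and that strips clathrin from vesicles. Its levels (probe at chr9:40612755-40613050) were 6.39, 6.39, 6.21 and 6.50 in aged replicates 1 to 4, against 6.89, 6.89, 6.90 and 6.41 in young replicates 2 to 5. Young replicates 2 to 4 were almost equal and above every aged pool, and young replicate 5 lay among the aged pools. Hspa8 averaged 6.37 ± 0.12 in aged cMSCs and 6.77 ± 0.24 in young cMSCs (SD, n = 4 each) (log2 fold change -0.40, SE 0.13, limma adjusted p = 0.17), and its 4 probes gave log2 fold changes of -0.54 to -0.40.

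Hspa5 codes for BiP, the Hsp70 protein of the ER that also keeps the sensors of ER stress silent. Its levels (probe at chr2:34631913-34631972) were 7.47, 7.54, 7.32 and 6.83 in aged replicates 1 to 4, against 7.94, 7.66, 7.86 and 7.40 in young replicates 2 to 5. Aged replicate 4 was the lowest pool by far, and young replicate 5 lay below aged replicates 1 and 2. Hspa5 averaged 7.29 ± 0.32 in aged cMSCs and 7.71 ± 0.24 in young cMSCs (SD, n = 4 each) (log2 fold change -0.43, SE 0.18, limma adjusted p = 0.33). It had 3 probes, with log2 fold changes of -0.64 to -0.43, and for 2 of them the groups did not overlap.

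The other 6 Hsp70 genes differed little. Hspa2, known for its part in the formation of sperm, had a log2 fold change of -0.22 (SE 0.11), and Hspa13, Hspa12b and Hspa12a lay between -0.14 and -0.081. Hspa9, which codes for the mitochondrial Hsp70 mortalin, was at 3.52 to 3.60 in aged pools and 3.45 to 3.65 in young pools (log2 fold change -0.009, SE 0.075). Hspa14, an Hsp70 gene whose protein sits at the ribosome, had a log2 fold change of -0.0025 (SE 0.10). Hspa1l, the gene of this family that is used mainly in the testis, was well above background in only 2 aged and 2 young pools and was not tested.

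The Hsp110 genes, whose proteins exchange the nucleotide of Hsp70, were split. Hsph1 and Hspa4l were lower in aged cMSCs at an unadjusted p under 0.05, and Hspa4 was not. Hsph1 (probe at chr5:150419744-150419803), the heat-inducible member, had levels of 2.48, 2.91, 2.30 and 2.13 in aged replicates 1 to 4, against 3.35, 3.47, 4.22 and 2.71 in young replicates 2 to 5. Aged replicate 2 was the highest aged pool and stood above young replicate 5, and young replicate 4 was the highest of all. Hsph1 averaged 2.46 ± 0.33 in aged cMSCs and 3.44 ± 0.62 in young cMSCs (SD, n = 4 each), a signal 0.507-fold that of young cMSCs (log2 fold change -0.98, SE 0.30, limma adjusted p = 0.15). A further probe gave -1.11 with every aged pool below every young pool.

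Hspa4l (probe at chr3:40594227-40594286) had levels of 0.51, 0.86, 0.20 and 0.15 in aged replicates 1 to 4, against 1.41, 0.85, 1.45 and 0.69 in young replicates 2 to 5. Young replicates 2 and 4 stood apart at the top, and aged replicate 2 was level with young replicate 3. Hspa4l averaged 0.43 ± 0.33 in aged cMSCs and 1.102 ± 0.39 in young cMSCs (SD, n = 4 each) (log2 fold change -0.67, SE 0.22, limma adjusted p = 0.19), and its 4 probes gave log2 fold changes of -0.70 to -0.58. Hspa4 (probe at chr11:53075085-53075144) had levels of 4.10, 4.25, 4.17 and 4.08 in aged replicates 1 to 4, against 4.07, 3.94, 4.25 and 3.91 in young replicates 2 to 5, with wide overlap (log2 fold change 0.11, SE 0.10, limma adjusted p = 0.76). Its brightest probe gave a positive difference and its 3 further probes negative ones, the lowest at -0.26, so that the direction for Hspa4 depends on the probe.

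Both genes for the cytosolic Hsp90 proteins were lower in aged cMSCs, and the gene for Hsp90 of the ER was not. Hsp90ab1, the constant cytosolic form (probe at chr17:45704788-45704847), had levels of 7.54, 7.63, 7.53 and 7.28 in aged replicates 1 to 4, against 8.03, 7.91, 8.06 and 7.83 in young replicates 2 to 5. The groups were apart by 0.20, between young replicate 5 and aged replicate 2, and aged replicate 4 was the lowest. Hsp90ab1 averaged 7.50 ± 0.15 in aged cMSCs and 7.96 ± 0.11 in young cMSCs (SD, n = 4 each), a signal 0.727-fold that of young cMSCs (log2 fold change -0.46, SE 0.10, limma adjusted p = 0.048, exact permutation p = 0.029). This call sat at the threshold. It was lost without any 1 of the 8 pools, with limma adjusted p of 0.061 to 0.13 and log2 fold changes of -0.50 to -0.39.

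Hsp90aa1, the heat-inducible cytosolic form (probe at chr12:111932511-111932796), had levels of 5.11, 5.10, 5.21 and 5.11 in aged replicates 1 to 4, against 5.81, 5.65, 5.81 and 4.99 in young replicates 2 to 5. The aged pools lay close together, young replicates 2 to 4 were above them, and young replicate 5 was the lowest of all 8 pools. Hsp90aa1 averaged 5.13 ± 0.051 in aged cMSCs and 5.56 ± 0.39 in young cMSCs (SD, n = 4 each) (log2 fold change -0.43, SE 0.18, limma adjusted p = 0.32). Without young replicate 5 it passed, with a log2 fold change of -0.63 (limma adjusted p = 0.012). Hsp90b1, whose protein GRP94 folds integrins and Toll-like receptors in the ER, had levels of 7.004, 7.02, 7.04 and 6.96 in aged replicates 1 to 4, against 7.21, 6.78, 6.87 and 7.01 in young replicates 2 to 5. The groups overlapped fully, and the log2 fold change of 0.036 (SE 0.10) turned negative in some alternative fits (-0.041 to 0.12).

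**Figure D2:**
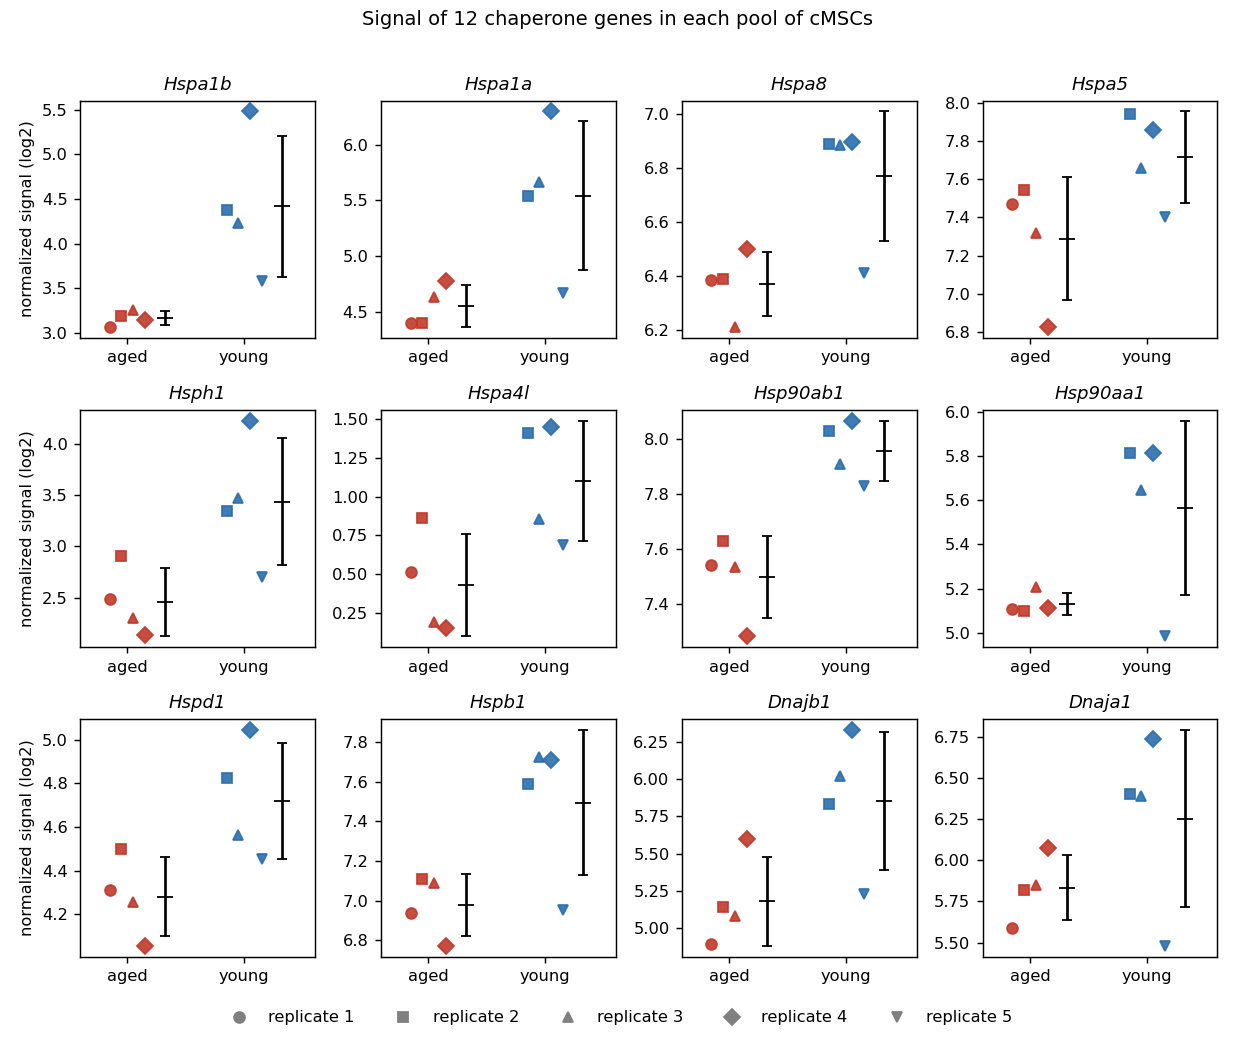
Normalized log2 signal (vertical axes, each with its own scale) of 12 members in the 4 aged (red) and 4 young (blue) pools, with marker shapes for the replicate number and black bars for mean ± SD. Aged and young pools are apart for Hspa1b and Hsp90ab1, and in most other panels young replicate 5 (down-pointing triangle) lies among the aged pools.

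Hspd1 and Hspe1 code for Hsp60 and its lid Hsp10, which work together in mitochondria, and lie head to head on chromosome 1. Hspd1 (probe at chr1:55134829-55134888) had levels of 4.31, 4.50, 4.26 and 4.06 in aged replicates 1 to 4, against 4.82, 4.56, 5.04 and 4.45 in young replicates 2 to 5. Only aged replicate 2 and young replicate 5 crossed, by 0.048. Hspd1 averaged 4.28 ± 0.18 in aged cMSCs and 4.72 ± 0.27 in young cMSCs (SD, n = 4 each) (log2 fold change -0.44, SE 0.15, limma adjusted p = 0.2). Hspe1 (probe at chr1:55148026-55148085) had levels of 4.26, 4.30, 4.15 and 4.03 in aged replicates 1 to 4, against 4.46, 4.34, 4.68 and 4.01 in young replicates 2 to 5. The groups overlapped more than for its neighbour, with young replicate 5 below all aged pools and young replicate 4 above all others (log2 fold change -0.19, SE 0.14, limma adjusted p = 0.69). Both probes of Hspd1 and all 3 probes of Hspe1 gave negative log2 fold changes, of -0.44 to -0.39 and of -0.32 to -0.19.

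Of 7 small heat shock protein genes tested, none passed, 4 were lower and 3 higher in aged cMSCs (4 or 5 lower under other scalings), and the median log2 fold change was -0.021. Hspb1 codes for Hsp27, which also binds actin filaments. Its levels (probe at chr5:136365366-136365425) were 6.94, 7.11, 7.09 and 6.77 in aged replicates 1 to 4, against 7.59, 7.73, 7.71 and 6.95 in young replicates 2 to 5. Young replicates 2 to 4 were above every aged pool, and young replicate 5 lay within the range of the aged pools. Hspb1 averaged 6.98 ± 0.16 in aged cMSCs and 7.49 ± 0.37 in young cMSCs (SD, n = 4 each), a signal 0.699-fold that of young cMSCs (log2 fold change -0.52, SE 0.18, limma adjusted p = 0.21), and without young replicate 5 it passed at -0.70 (limma adjusted p = 0.0198).

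Hspb7, a small heat shock protein of heart muscle (probe at chr4:140981071-140981130), had levels of -0.83, -0.59, -1.12 and -1.35 in aged replicates 1 to 4, against -0.46, 0.048, -0.26 and -1.55 in young replicates 2 to 5. Young replicate 5 was the lowest of all pools and young replicate 3 the highest, and the groups overlapped widely (log2 fold change -0.42, SE 0.33, limma adjusted p = 0.7). Hspb2, Hspb6 and Hspb8, all known from muscle, had log2 fold changes of 0.0034, 0.041 and -0.021. Cryab, the αB-crystallin gene, shares its promoter region with Hspb2 and codes for a small heat shock protein under another name. It is no member here and is counted among the 33 heat shock factors and co-chaperones below. Cryab had a log2 fold change of -0.38 (SE 0.094, limma adjusted p = 0.075) and did not pass. Its aged pools all lay below its young pools, which was the case for 4.09% of all genes.

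Heart muscle uses several of these small heat shock proteins, and its markers also differed between the groups. Of 16 cardiomyocyte markers tested, 13 were lower in aged cMSCs (51.3% of all genes) and 3 fell (Tnni3, Tnnc1 and Pln), while 0.806% of all genes fell. The median log2 fold change of the 16 markers was -0.49. At an unadjusted limma p under 0.05 there were 11 of them (13.9% of all genes), 10 of which were lower (5.83% of all genes). The groups did not overlap for 8, with the aged pools lower for all 8 (4.09% of all genes). The mean level of the 16 markers per pool was -1.12 to -0.42 in aged pools and -0.52 to -0.074 in young pools. Young replicate 5 had the highest mean of cardiomyocyte markers and the lowest level of Hspb7. Of 12 smooth muscle and pericyte markers, 10 were lower and 0 passed. At an unadjusted limma p under 0.05, 5 were lower (5.83% of all genes). Mean levels of the 12 markers were 0.72 to 0.96 in aged pools and 1.08 to 1.15 in young pools. The part of either list in the values of the small heat shock protein genes was not tested.

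DnaJ proteins hand clients to Hsp70, and the 3 classes differ in the domains beside the J domain. All 4 DnaJA genes were lower in aged cMSCs, with a median log2 fold change of -0.12, and none passed. Dnaja1, the heat-inducible cytosolic form (probe at chr4:40679954-40680014), had levels of 5.59, 5.82, 5.85 and 6.08 in aged replicates 1 to 4, against 6.40, 6.39, 6.73 and 5.48 in young replicates 2 to 5. Young replicates 2 to 4 were above every aged pool, and young replicate 5 was below every one of them, which left a wide error (log2 fold change -0.42, SE 0.25, limma adjusted p = 0.55). Its 3 probes gave -0.42 to -0.38. Dnaja2, Dnaja3 (the mitochondrial form) and Dnaja4 had log2 fold changes of -0.035, -0.12 and -0.12.

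Among 10 DnaJB genes tested, 5 were lower and 5 higher in aged cMSCs (5 or 6 lower under other scalings), and the median was -0.022. Dnajb1 codes for Hsp40, the main partner of inducible Hsp70 (probe at chr8:86135660-86135719), and had levels of 4.89, 5.14, 5.08 and 5.60 in aged replicates 1 to 4, against 5.83, 6.02, 6.33 and 5.23 in young replicates 2 to 5. Aged replicate 4 was the highest aged pool and stood above young replicate 5, and young replicates 2 to 4 were above all aged pools. Dnajb1 averaged 5.18 ± 0.30 in aged cMSCs and 5.85 ± 0.46 in young cMSCs (SD, n = 4 each), a signal 0.626-fold that of young cMSCs (log2 fold change -0.67, SE 0.24, limma adjusted p = 0.22).

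Dnajb2, a form known from neurons that sends clients to the proteasome, was the other DnaJB gene lower at an unadjusted p under 0.05. Its levels were 3.61, 3.73, 3.40 and 3.31 in aged replicates 1 to 4, against 3.85, 3.68, 3.93 and 3.82 in young replicates 2 to 5, with aged replicate 2 above young replicate 3 (log2 fold change -0.31, SE 0.11, limma adjusted p = 0.24). Dnajb9, an ER partner of BiP, had a log2 fold change of -0.33 (SE 0.20). A dimmer probe of Dnajb9 gave -0.50 (SE 0.15), with every aged pool below every young pool. The highest DnaJB genes were Dnajb5 and Dnajb3, at 0.18 and 0.26 (SE 0.10 and 0.22), and both groups overlapped. Dnajb6, whose 5 probes gave log2 fold changes of 0.022 to 0.13, differed by less than the spread between pools.

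The DnaJC genes are the class with the most members and the most varied domains, and all but Dnajc7 had log2 fold changes between -0.17 and 0.13. Of 24 tested, 14 had a log2 fold change below 0 and 10 above it (12 to 18 below 0 under other scalings), none passed, none reached an unadjusted p under 0.05, and the median was -0.012. The lowest was Dnajc18 at -0.17 (SE 0.10). Dnajc8, a class member linked to splicing (probe at chr4:132109578-132109637), had levels of 4.80, 4.73, 4.67 and 4.52 in aged replicates 1 to 4, against 4.53, 4.53, 4.72 and 4.54 in young replicates 2 to 5 (log2 fold change 0.10, SE 0.09, limma adjusted p = 0.76).

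Dnajc7, which binds both Hsp70 and Hsp90, had the highest log2 fold change of all members, and it rested on 1 pool. Its levels (probe at chr11:100444161-100444220) were 4.45, 4.55, 4.45 and 4.25 in aged replicates 1 to 4, against 4.50, 4.27, 4.54 and 2.86 in young replicates 2 to 5. Young replicate 5 was far below the other 7 pools, which all lay between 4.25 and 4.55 (log2 fold change 0.38, SE 0.34, limma adjusted p = 0.75). Its second probe showed the same, with 1.44, 1.57, 1.49 and 1.47 in aged replicates 1 to 4, against 1.58, 1.28, 1.66 and -0.0054 in young replicates 2 to 5. Dnajc7 was named after its values were seen.

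Among the remaining members, Hspbp1, which releases nucleotide from Hsp70 (probe at chr7:4612352-4612411), had levels of 1.39, 1.33, 1.41 and 1.32 in aged replicates 1 to 4, against 1.35, 1.37, 1.44 and 1.47 in young replicates 2 to 5 and a log2 fold change of -0.046 (SE 0.071). Hspbap1, named for its binding of Hsp27, was at -0.093 (SE 0.11). The 9 members that were not tested because no group had all 4 pools well above background were Dnajb7, Dnajb8, Dnajb13, Dnajc5b, Dnajc5g, Dnajc6, Dnajc22, Hspa1l and Hspb3.

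Grouped by what induces them, the 13 heat-inducible members (Hspa1a, Hspa1b, Hspa8, Hsph1, Hspa4l, Hsp90aa1, Hspd1, Hspe1, Hspb1, Dnaja1, Dnaja4, Dnajb1 and Dnajb4) were all lower in aged cMSCs, under every scaling of the arrays that was tried. Their median log2 fold change was -0.44, against -0.026 for the 52 other members and -0.0052 for all genes. None of the 13 passed (0.806% of all genes fell), and 9 were lower at an unadjusted limma p under 0.05 (5.83% of all genes). For 1 the groups did not overlap, with every aged pool below every young pool, which was the case for 4.09% of all genes. All 30 of their tested probes gave a negative log2 fold change, of -1.25 to -0.079, as did 59 of the 99 probes of other members. The list holds Hspa8, which is made without stress too, and was compiled with earlier results of these data known.

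For these genes the young pools were spread more widely than the aged pools. The SD of young pools was the larger for 13 of 13, against 59.0% of all genes, with a median SD of 0.18 in aged and 0.39 in young cMSCs (0.15 in aged and 0.18 in young cMSCs over all genes). Young replicate 5 was the lowest young pool for 13 of 13 and young replicate 4 the highest for 12 of 13, while 40.2% of all genes had young replicate 5 as the lowest young pool and 29.4% had young replicate 4 as the highest. Each gene was centred on its mean of the 8 pools, and the 13 genes were then averaged in each pool. The means were -0.34, -0.18, -0.31 and -0.28 in aged replicates 1 to 4, against 0.36, 0.29, 0.71 and -0.26 in young replicates 2 to 5. The 4 aged pools were thus alike, young replicates 2 to 4 lay above them by different amounts, and young replicate 5 was level with them.

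Without young replicate 5 the median of the 13 genes was -0.67 and every aged pool was below every remaining young pool for 10 of 13, against 8.56% of all genes. Since young replicate 5 was the lowest young pool for all 13, leaving it out could only raise that count. Without young replicate 4 it was -0.36, with 12 of 13 lower and 1 free of overlap (5.82% of all genes). The arrays lay in 2 rows of a slide with 2 pools of each group in a row, and the median was -0.32 in the row that held young replicates 3 and 5 and -0.66 in the row that held young replicates 2 and 4. In these rows 11 and 13 of the 13 genes were lower in aged cMSCs.

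**Figure D3:**
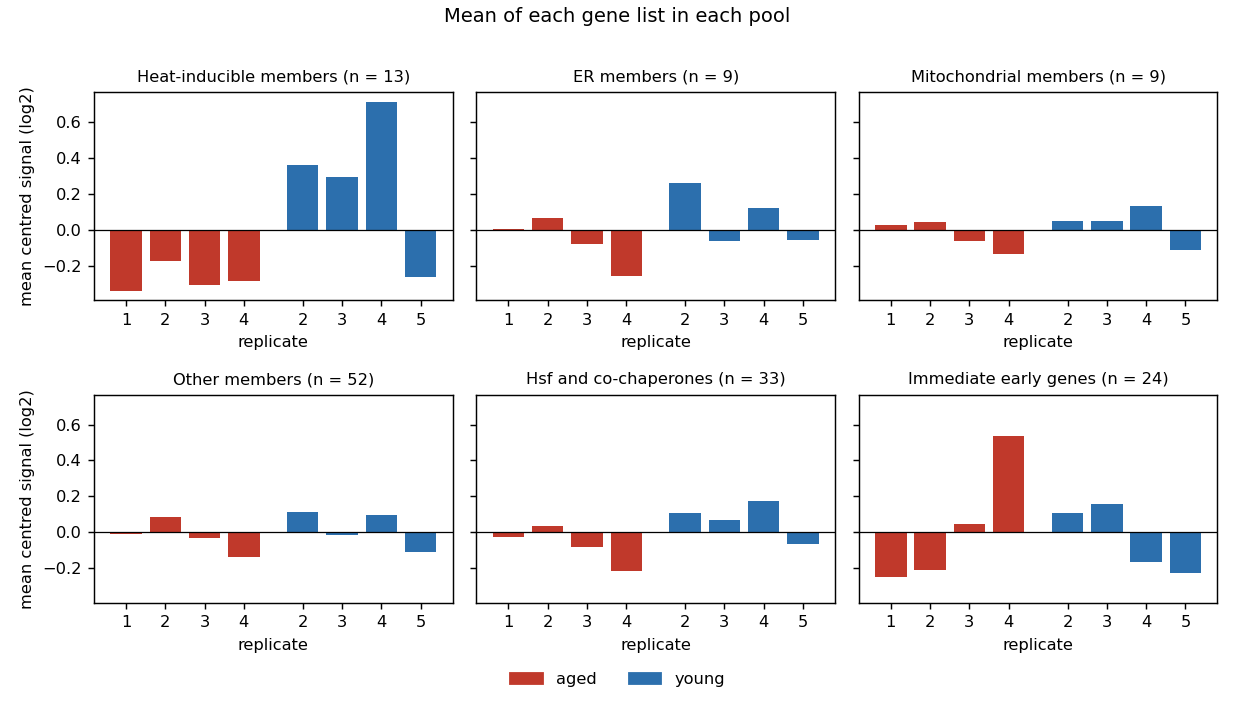
Mean over the genes of each list in each pool (vertical axis, log2, each gene centred on its mean of all 8 pools), for aged (red) and young (blue) replicates. The heat-inducible members lie at -0.34 to -0.18 in aged pools and at 0.29 to 0.71 in 3 young pools, with young replicate 5 at -0.26, while the immediate early genes are highest in aged replicate 4, at 0.53.

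Members of the ER and of mitochondria had median log2 fold changes closer to 0. Of 9 ER members (among them Hspa5, Hsp90b1, Hspa13, Dnajb9, Dnajb11 and Dnajc3), 0 passed, and the median log2 fold change was -0.12. By the brightest probe of each gene, 1 was at an unadjusted limma p under 0.05, Hspa5. Their centred means were 0.0023, 0.067, -0.079 and -0.25 in aged replicates 1 to 4, against 0.26, -0.063, 0.12 and -0.055 in young replicates 2 to 5. Aged replicate 4 was the lowest aged pool for 8 of 9 and young replicate 2 the highest young pool for 6 of 9. Of 9 mitochondrial members, 0 passed, 1 was at an unadjusted limma p under 0.05 (Hspd1), and the median was -0.009 (-0.048 to 0.0042 under other scalings). Their centred means were 0.029, 0.045, -0.06 and -0.13 in aged replicates 1 to 4, against 0.046, 0.05, 0.13 and -0.11 in young replicates 2 to 5. Young replicate 4 was thus the highest and young replicate 5 the lowest young pool, as for the heat-inducible genes, whose list shares Hspd1 and Hspe1 with this one.

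The immediate early genes, transcription factors and others that are switched on within minutes of a stimulus, differed in pattern from the heat-inducible genes. Of 24 tested (Fos, Jun, Egr1, Atf3 and others), 0 passed and 0 were at an unadjusted limma p under 0.05, and 15 were higher in aged cMSCs. The largest difference was that of Nr4a3, at -0.53 (limma adjusted p = 0.37). Their centred means were -0.25, -0.21, 0.046 and 0.53 in aged replicates 1 to 4, against 0.11, 0.16, -0.17 and -0.22 in young replicates 2 to 5. Young replicate 4, highest for the heat-inducible genes, was thus below the middle for the immediate early genes, and young replicate 5 was low for both.

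Several heat-inducible members carry a heat shock element close to their start, and the promoters are shown of the 6 heat-inducible members with the largest differences, with and without an element, and of Hspe1, whose elements overlap. Promoter windows of 300 bases, 250 before and 50 after a transcription start, came from RefSeq (build GRCm38.p6), and 60 of 74 members had 1 or more, 77 windows in all. An element was taken as GAANNTTC or TTCNNGAA, each of which reads the same on the other strand, and 3 units in a row as an element extended by a further inverted unit at the same spacing, whose letters thus hold 2 overlapping elements. In the 250 bases before the start printed here, 5′ to 3′ along the gene, the capitals mark the elements, and a promoter with no capitals holds none there. The first start listed was used for each gene.
Hspa1b: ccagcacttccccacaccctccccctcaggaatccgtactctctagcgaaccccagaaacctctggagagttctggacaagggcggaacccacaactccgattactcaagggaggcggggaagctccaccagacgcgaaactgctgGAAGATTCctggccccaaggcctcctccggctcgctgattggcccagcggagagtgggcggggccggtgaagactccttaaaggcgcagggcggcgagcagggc
Hspa1a: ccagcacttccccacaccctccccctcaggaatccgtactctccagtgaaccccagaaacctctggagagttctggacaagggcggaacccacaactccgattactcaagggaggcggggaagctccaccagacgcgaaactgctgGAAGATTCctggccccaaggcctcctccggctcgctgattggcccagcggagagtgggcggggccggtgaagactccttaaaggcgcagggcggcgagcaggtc
Hsph1: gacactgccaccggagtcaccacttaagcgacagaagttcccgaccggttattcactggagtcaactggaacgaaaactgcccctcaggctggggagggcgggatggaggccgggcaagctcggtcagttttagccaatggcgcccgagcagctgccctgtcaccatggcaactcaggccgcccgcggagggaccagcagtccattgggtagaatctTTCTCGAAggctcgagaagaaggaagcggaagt
Dnajb1: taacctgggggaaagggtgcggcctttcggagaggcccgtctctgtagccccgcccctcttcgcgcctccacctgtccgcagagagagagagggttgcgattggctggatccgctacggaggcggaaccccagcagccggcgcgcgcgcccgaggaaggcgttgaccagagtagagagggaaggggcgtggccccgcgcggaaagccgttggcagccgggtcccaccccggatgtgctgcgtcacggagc
Hspa4l: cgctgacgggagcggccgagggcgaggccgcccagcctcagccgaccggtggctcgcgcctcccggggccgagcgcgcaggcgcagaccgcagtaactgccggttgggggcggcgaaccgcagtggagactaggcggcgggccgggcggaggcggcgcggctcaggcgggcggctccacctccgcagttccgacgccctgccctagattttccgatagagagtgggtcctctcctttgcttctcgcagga
Hspb1: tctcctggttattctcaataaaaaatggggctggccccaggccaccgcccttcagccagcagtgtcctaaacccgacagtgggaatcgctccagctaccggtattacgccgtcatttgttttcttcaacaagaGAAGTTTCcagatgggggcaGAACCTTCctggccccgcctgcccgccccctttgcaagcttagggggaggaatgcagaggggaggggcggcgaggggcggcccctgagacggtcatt
Hspe1: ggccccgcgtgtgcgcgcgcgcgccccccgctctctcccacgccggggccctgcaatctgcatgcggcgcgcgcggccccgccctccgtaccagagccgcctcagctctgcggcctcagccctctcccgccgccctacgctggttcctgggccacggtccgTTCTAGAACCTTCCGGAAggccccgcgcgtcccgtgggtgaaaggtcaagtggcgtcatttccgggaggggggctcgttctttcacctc
They lie at chr17:34959239-34959488, minus strand (Hspa1b), chr17:34972157-34972406, minus strand (Hspa1a), chr5:149636337-149636586, minus strand (Hsph1), chr8:83607925-83608174, plus strand (Dnajb1), chr3:40745363-40745612, plus strand (Hspa4l), chr5:135887669-135887918, plus strand (Hspb1) and chr1:55087898-55088147, plus strand (Hspe1).

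The upstream bases of Hspa1a and Hspa1b were the same at 247 of 250 positions, and both hold 1 element that begins 104 bases before the start. Hspe1 holds 3 overlapping elements that begin 89, 84 and 79 bases before its start. The window of 1 of the starts of Hspd1, which reads away from Hspe1 on the other strand, holds elements that begin 144, 139 and 134 bases before that start. Hspb1 has 2 separate elements, at 117 and 97 bases before the start, and Dnaja1 has 1, at 124 bases. Hsph1 has 1 element 33 bases before its first start and 3 units in a row that begin 37 bases after it.

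At least 1 element was found in a window of 9 of the 11 heat-inducible members with windows. Of the 49 other members, 7 had one, against 17% of all genes with a window. A gene with several starts counts if any of its windows holds an element. By windows, 10 of 18 of heat-inducible members and 8 of 59 of other members hold one, against 15.1% of all windows. The list was chosen for induction by heat, which works through these elements, so its share is not a test. The heat-inducible members without an element in these windows were Dnajb1 and Hspa4l, with log2 fold changes of -0.67 and -0.67. Units of 3 in a row were found for Hspd1, Hspe1, Hsph1 and Dnajb6, and in 0.662% of all genes with a window. Dnajb6 holds them and had a log2 fold change of 0.049. The letters CCAAT or their complement ATTGG occurred in windows of 6 of the 11 heat-inducible members and of 41.1% of all genes with a window. TATAAA or TTTATA occurred in none of the 11 and in windows of 15.7% of all genes with one. A match is a string of letters and no measure of binding.

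**Figure D4:**
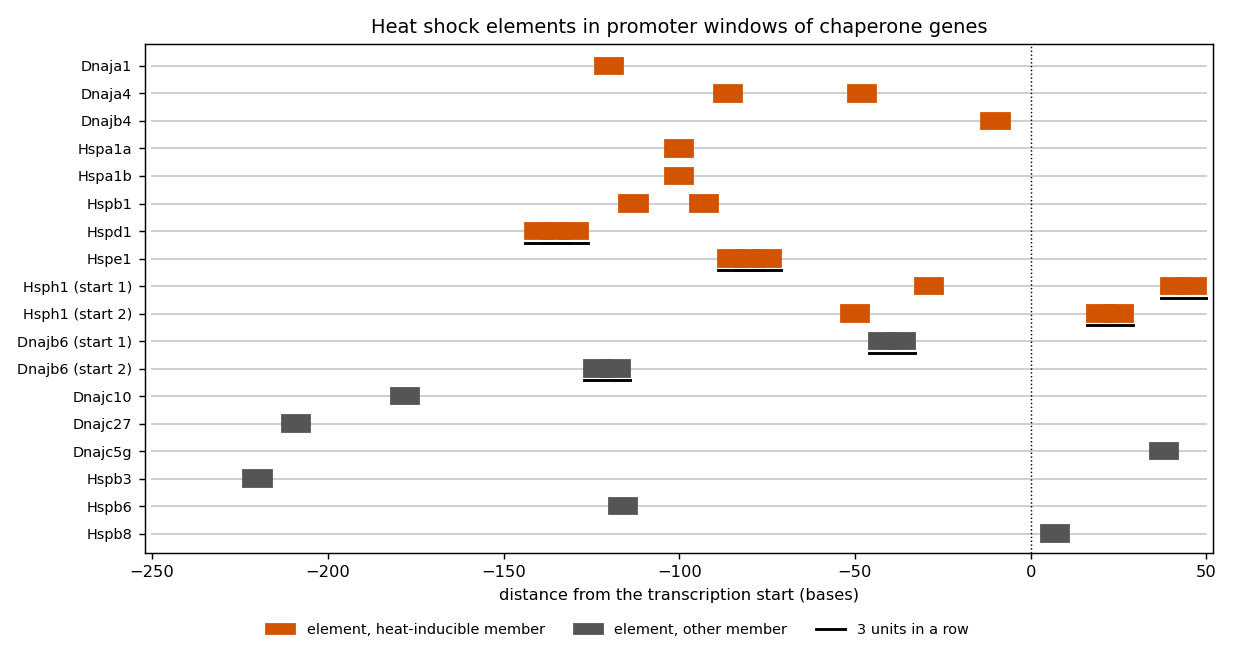
Position of heat shock elements (boxes) relative to the transcription start (horizontal axis, in bases, from 250 before to 50 after) in each promoter window of a member that holds one, with a black line under 3 units in a row. Those of Hspa1a and Hspa1b begin 104 bases before the start, and those of Hspe1 begin 89, 84 and 79 bases before it.

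Agreement among probes was checked for the 39 members with 2 or more tested probes, 103 probes in all, of which 71 gave a negative log2 fold change. For Hspa5, Hspa8, Hspa4l, Hsph1, Hsp90aa1, Hspd1, Hspe1, Dnaja1, Dnajb2 and Dnajb9 every tested probe was lower in aged cMSCs. Probes on both sides of 0 were found for Hspa4, Hspa14, Hspa12a, Dnajb11, Dnajb12 and several DnaJC genes, with the highest further probe of Hspa12a at 0.28. Hsp90ab1, Hspa1a, Hspa1b, Hspb1 and Dnajb1 rest on 1 tested probe each. Probe positions refer to mm9, as in the array files, and the exon or untranslated region under a probe was not analysed here.

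**Figure D5:**
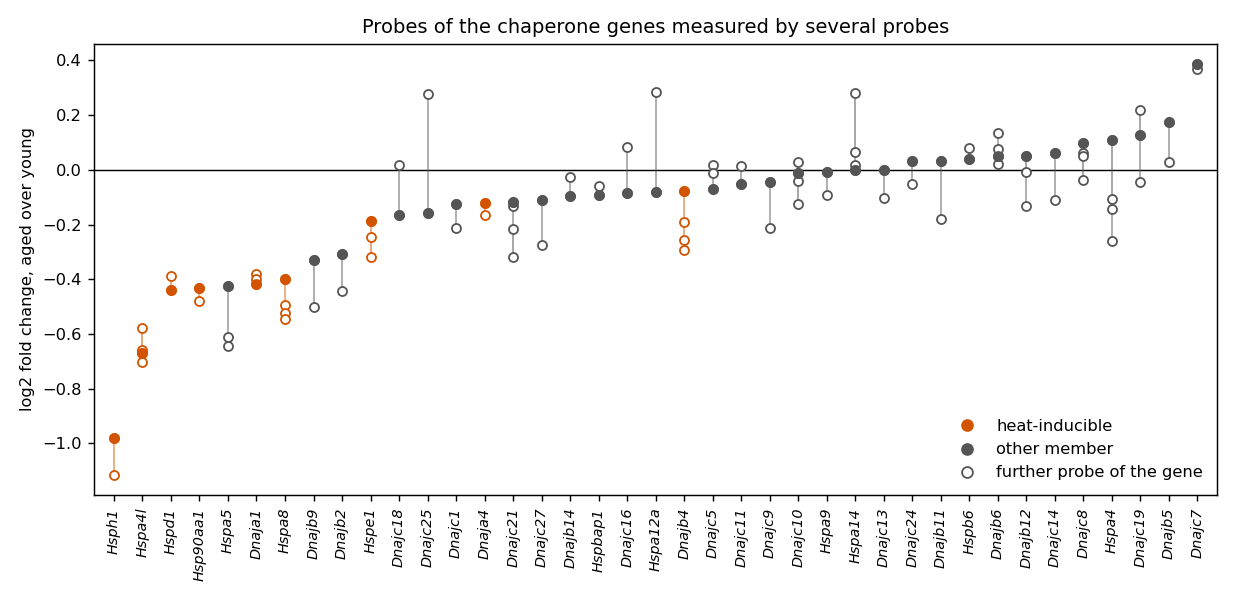
Log2 fold change, aged over young (vertical axis), of every tested probe of the 39 members with several probes, with filled symbols for the probe that stands for the gene. Both probes of Hsph1 lie at or below -0.98 and all 4 of Hspa4l between -0.70 and -0.58, and both of Dnajc7 lie at 0.37 and 0.38.

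Genes that work with the chaperones were mostly lower in aged cMSCs, and 2 of them passed. Of 33 tested heat shock factors and co-chaperones, 27 were lower in aged cMSCs (51.3% of all genes), and the median log2 fold change was -0.13. Of the 33, 1 fell and 1 rose (0.806% and 2.25% of all genes). At an unadjusted limma p under 0.05, 6 were lower (5.83% of all genes) and 2 higher (8.06% of all genes). The groups did not overlap for 8, with the aged pools lower for 6 (4.09% of all genes) and higher for 2 (6.32% of all genes). The one that fell was Stip1, which codes for HOP, the adaptor that passes clients from Hsp70 to Hsp90. Its levels were 1.15, 1.18, 0.93 and 0.85 in aged replicates 1 to 4, against 1.78, 1.61, 1.85 and 1.37 in young replicates 2 to 5, with no overlap (log2 fold change -0.63, SE 0.13, limma adjusted p = 0.04). The one that rose was Hsf4, a heat shock factor best known from the lens, whose low levels were -1.88, -2.07, -1.85 and -1.98 in aged replicates 1 to 4, against -2.53, -2.30, -2.71 and -2.59 in young replicates 2 to 5, with no overlap (log2 fold change 0.59, SE 0.10, limma adjusted p = 0.022). Fkbp4, an Hsp90 partner on steroid receptors, differed by about as much as Stip1 without passing (log2 fold change -0.60, SE 0.19, limma adjusted p = 0.16), with no overlap, and Chordc1, a further Hsp90 partner, had a log2 fold change of -0.50. Serpinh1, which codes for the collagen chaperone Hsp47, had a log2 fold change of -0.40, with groups that were apart by only 0.00084. These 3 genes were named after their values were seen.

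Hsf1, the factor that drives the heat shock response, had levels of 2.55, 2.61, 2.54 and 2.54 in aged replicates 1 to 4, against 2.77, 2.79, 2.71 and 2.43 in young replicates 2 to 5. Young replicate 5 was the lowest and the other young pools were above the aged ones (log2 fold change -0.11, SE 0.10, limma adjusted p = 0.73). Of the 14 subunits of the cytosolic chaperonin TRiC and of prefoldin, all had a log2 fold change between -0.21 and 0 (12 to 14 below 0 under other scalings), 0 passed and 0 were at an unadjusted limma p under 0.05, the largest difference being Cct3 at -0.21. Of 25 genes of the unfolded protein response, 20 were lower (51.3% of all genes), 0 passed, and the median was -0.18. At an unadjusted limma p under 0.05, 1 was lower, Herpud1 at -0.40, and 1 was higher, Trib3 at 0.37. Of all genes, 5.83% were lower and 8.06% higher at that level. The largest difference there was that of Manf, an ER stress factor, at -0.51 (limma adjusted p = 0.37).

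Markers of other cells were measured beside these genes. Of 7 neutrophil markers, 4 rose in aged cMSCs (S100a9, Ly6g, Camp and Lcn2), while 2.25% of all genes rose. Mean levels of the 7 markers were -0.48 to 0.98 in aged pools and -2.14 to -1.02 in young pools. Of 14 macrophage markers 1 rose, Cd14, with mean levels of -0.80 to -0.33 in aged pools and -1.46 to -0.40 in young pools, the lowest in young replicate 5. Of 12 endothelial markers 0 passed (1 at an unadjusted limma p under 0.05). Of 4 mesothelial markers 1 rose, Dmkn, and 2 of the 4 were lower in aged cMSCs. Of 4 Schwann markers 1 rose, Mbp, and the median log2 fold change was 0.071, with 1 of the 4 lower. Of 11 cMSC markers 1 fell, Thy1, and 8 were lower (51.3% of all genes). At an unadjusted limma p under 0.05 there were 6 cMSC markers (13.9% of all genes), 5 of them lower (5.83% of all genes). The aged pools all lay below the young pools for 4 cMSC markers (4.09% of all genes) and above them for 1 (6.32% of all genes). The part of all these markers in the levels of the chaperone genes was not tested.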

How the data were processed

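RNA of 4 aged and 4 young pools of sorted cMSCs was measured on 8 Agilent 1-colour arrays, all on 1 slide. Scanner files deposited by the authors hold a processed signal, an intensity with background subtracted by Feature Extraction 10.10.1.1 and no normalization between arrays. They also deposited a log2 table of the same arrays, used as an alternative. Control spots and outlier spots were left out, spots of a probe were averaged, and the log2 signal was set relative to the 75th percentile of each array over distinct probes. A probe was kept where all 4 arrays of at least 1 group were well above background, and the brightest stood for its gene. Aged and young pools were set against each other in limma 3.58.1 under R 4.3.3 (lmFit, eBayes, 6 residual and 2.66 prior degrees of freedom) over 20219 genes, with Benjamini-Hochberg adjustment. P-values measure the spread between pools, and 4 pools a group limit the precision. The test was also run on simulated data, drawn with the means and SDs of the measured genes. Each gene was drawn independently there, without deviations shared by the genes of a pool. The simulation thus cannot show how the test behaves where a pool such as young replicate 5 deviates for many genes. Exact permutation tests ran over every split of the 8 pools into 4 and 4. Tables were made with pandas 2.3.3, numpy 2.4.6 and matplotlib 3.10.9.

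Members and gene lists were chosen with earlier results of these data known. Values of every pool are given for members that passed, those with the largest log2 fold changes up to 12 in all, the brightest of each family and 10 well-known heat shock genes. Dnajc7, Dnajb2 and Hsp90b1 were added as examples. Alternatives were other normalizations and background corrections, filters, probe summaries, blocks, variance models, array weights, the log2 table, the thresholds of the publication and leaving out each pool, and scaling over all spots was added after seeing the data.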

Additional observations from a re-analysis of the deposited data

Results flagged for a closer look

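Over the 65 tested members, 130 groups of 4 pools were checked for 1 pool that stood apart, with a gap to its nearest neighbour above 0.829 of the range of the group. About 1 in 20 such groups is found by chance, and 6 were found. Young replicate 5 stood apart for Dnajc7, at 2.86 with the next young pool at 4.27, and both probes of that gene showed it. It also stood apart for Hspa8, at 6.41 with the next young pool at 6.89. Young replicate 4 was high for Dnajc8, at 4.72 with the next young pool at 4.54. Aged replicate 3 was high for Hsp90aa1, at 5.21 with the next aged pool at 5.11. Aged replicate 2 was high for Dnajc28, at -1.88 with the next aged pool at -2.07. Aged replicate 4 was low for Dnajc19, at 4.10 with the next aged pool at 4.17.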

How the results depend on the processing

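No member rose under any alternative that was tested across genes. Beside the 1 member that fell, 10 fell with array weights (Dnajb1, Hsp90aa1, Hsp90ab1, Hspa1a, Hspa1b, Hspa4l, Hspa8, Hspb1, Hspd1 and Hsph1), which gave young replicate 5 the lowest weight of the 8 arrays, 0.344. With the thresholds of the publication 2 members were lower. None fell with quantile normalization, median scaling, normexp background correction, no filter on dim probes, probes in place of genes, the log2 table of the authors or the replicate block (0 members each), and leaving out 1 pool gave 0 to 5. The log2 fold change of Hsp90ab1 stayed between -0.52 and -0.39 in all of these, with limma adjusted p of 0.011 to 0.32. The median of the members lay between -0.11 and -0.036 and that of the heat-inducible members between -0.67 and -0.32 in all alternatives, which moved them by less than their SD between pools of 0.107 and 0.249. Of all 65 members, 35 kept their direction in all of 23 alternatives and 30 did not. Among these 30 were Hspa4, at -0.10 with the mean of its probes, Hsp90b1 (-0.041 to 0.12), Dnajc7 (-0.016 to 0.78), and the heat-inducible Dnaja4 (-0.27 to 0.031) and Dnajb4 (-0.23 to 0.069). Over all genes, 163 fell and 455 rose. With array weights 399 fell, with the thresholds of the publication 270 fell, with no filter 37 fell and 168 rose, with the replicate block 2 fell and 14 rose, and leaving out 1 pool gave 70 to 154 that fell and 252 to 346 that rose. The cause of these changes was not tested. Leaving out 1 pool also leaves fewer pools for the test. Replicate numbers 2, 3 and 4 occur in both groups, and the deviations of pools with the same number had correlations of 0.18, -0.17 and -0.27. The main test did not pair pools by number. Such correlations cannot show whether pools with the same number were handled together, and the labels do not state it.

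Signal limits the 9 members that were not well above background, for which no difference was measured. Most members rest on 1 probe or on the brightest of several, and a single pool, young replicate 5, decides whether heat-inducible members pass.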
